A study of Mus musculus with 9 samples.

Results

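The transcripts of 9 transcription factors that give retinal progenitors their neurogenic drive and their competence to make given cell types were followed in mature mouse retinas with conditional deletions of the TET genes. The 9 genes, Atoh7, Neurog2, Olig2, Neurod2, Neurod4, Neurod6, Ptf1a, Foxn4 and Ikzf1, were chosen by name and found by their gene symbols, each once, among the 55487 genes of the deposited table. Bulk RNA-seq had been made from whole retinas of C57 BL/6J mice at postnatal day 21 (P21), with 3 libraries for each of 3 genotypes. Each library pooled retinas from 2 animals. Controls without Cre (Cre-) are labelled WT. Triple heterozygous retinas (tHet) carried 1 floxed allele of each of Tet1, Tet2 and Tet3 and the Chx10-Cre-GFP transgene, and mutant retinas (Tet tcKO) carried both floxed alleles of all 3 genes and the transgene. The transgene is driven by the Chx10 promoter, which is active in retinal progenitors and is known to act in a mosaic, so that Cre-positive parents were in-crossed while Cre- animals came from Cre- breeders. A difference from Cre- therefore cannot be told apart from one between breeding lines, and the Cre- samples lack the transgene as well as the deletion. Atoh7 was the only member whose transcripts passed the test, with a mean of 1.69 CPM (reads scaled to the same total on genes in each library) in Tet tcKO against 0.303 CPM in Cre- and 0.127 CPM in tHet, and its call against Cre- held in 10 of 20 alternative fits. Atoh7 entered the test only through its Tet tcKO libraries. Neurod6 was low in every Tet tcKO library but missed the threshold, and so did Neurod4, which was above every tHet library. In the other members the mutant libraries overlapped both controls, or the transcripts were too rare to test.

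Most of these factors belong to the basic helix-loop-helix (bHLH) family. A proneural bHLH factor pairs with an E protein, binds the E-box, written CANNTG, and switches on genes that take a progenitor out of the cell cycle and into a neuronal fate. Id proteins capture the E proteins. Several Hes and Hey repressors, which Notch signalling induces, silence the proneural genes, so that the same pathway decides who leaves the progenitor pool. Foxn4, a forkhead factor, and Ptf1a, a bHLH factor, act in sequence toward amacrine and horizontal cells, and Ikzf1, a zinc finger factor also called Ikaros, marks young progenitors that can still make early-born cell types. In the mouse most of these genes are expressed during neurogenesis, which is over well before P21, whereas Neurod factors persist in subsets of differentiated neurons. The TET enzymes oxidise methylated cytosines, mostly those in the dinucleotide CG.

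The sequences before the start sites of 3 members are shown because Atoh7 and Neurod6 had the largest fitted differences, in opposite directions, and Neurod4 had by far the highest level. They come from the promoter table of RefSeq (GRCm38.p6), in which all 9 members were found, are written 5′ to 3′ on the strand of the gene, and are trimmed to bases outside the annotated gene. Capitals mark each CG.
Atoh7, chr10:63099535-63099650, plus strand: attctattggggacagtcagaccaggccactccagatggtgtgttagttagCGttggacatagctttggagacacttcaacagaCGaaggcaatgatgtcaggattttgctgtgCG
Neurod6, chr6:55681264-55681513, minus strand: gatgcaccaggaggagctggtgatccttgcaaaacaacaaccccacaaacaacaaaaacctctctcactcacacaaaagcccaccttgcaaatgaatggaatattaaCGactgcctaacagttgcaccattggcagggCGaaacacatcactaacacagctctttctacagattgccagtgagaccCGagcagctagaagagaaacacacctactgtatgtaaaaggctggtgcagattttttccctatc
Neurod4, chr10:130280255-130280504, minus strand: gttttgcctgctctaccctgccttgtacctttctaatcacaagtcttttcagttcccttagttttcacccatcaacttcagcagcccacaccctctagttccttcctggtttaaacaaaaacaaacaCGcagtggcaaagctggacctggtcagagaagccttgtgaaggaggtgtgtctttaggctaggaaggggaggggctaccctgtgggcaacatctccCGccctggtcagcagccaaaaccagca
The 116 bases shown for Atoh7 hold 3 CG and 1 E-box (CANNTG, which reads the same on both strands), the 250 bases of Neurod6 hold 3 CG and 2 E-boxes, and the 250 bases of Neurod4 hold 2 CG and no E-box. Another RefSeq start site of Neurod4, not shown, has 7 CG and no E-box in its 250 bases. Over the whole 250 bases before the RefSeq start, Atoh7 had 9 CG and 3 E-boxes. The median over the 32851 promoters of the table was 6 CG (quartiles 2 and 16), and 31.81% of them held 2 or more E-boxes, so none of the 3 windows stood out by CG count. Among the other members the count in 250 bases was 8 for Neurog2, 11 for Neurod2, 17 for Foxn4, 19 for Ptf1a and 22 for Olig2. Ikzf1 had 44 at 1 of its start sites, a number reached by 0.539% of promoters, and 1 at the other. DNA methylation at these sites was not analysed here.

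The libraries held 9627927 to 21108256 reads on genes, so that 1 read stood for between 0.0474 and 0.104 CPM, and 3 reads, taken as the smallest detectable level, for 0.142 to 0.312 CPM per library. Such floors and all intervals on reads cover counting error only. A single gene annotated as ribosomal RNA, CT010467.1, took 28.7% of the reads of Tet tcKO replicate 3 and 3.72% of those of tHet replicate 3, against at most 0.226% in the other libraries, and leaving it out moved the median log2 fold change of all genes between Tet tcKO and Cre- from 0.00 to 0.14. Tet3, whose reads were summed over all exons, was at 120 ± 28.2 CPM in Tet tcKO (SD, n = 3) and 235 ± 29.2 CPM in Cre-, while Tet1 was at 64.2 and 54.6 CPM and Tet2 at 184 and 156 CPM, and reads over the deleted exons were not analysed here. The tissue label held: markers of rods, cones, bipolar, amacrine, horizontal and ganglion cells and Müller glia were detected in every genotype. All 4 rod markers were called lower and all 4 cone markers higher in Tet tcKO against either control. Pigment epithelium and ciliary body markers summed to 28.4 to 130 CPM in Cre-, 128 to 207 CPM in tHet and 53.2 to 108 CPM in Tet tcKO, lens markers to at most 44.6 CPM, astrocyte markers to 120 to 288 CPM over all libraries, and Müller glia markers to 1368 to 1780 CPM in Cre- and 1055 to 1252 CPM in Tet tcKO.

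The members spanned a wide range of levels. Divided by the length of their annotated exons, the order in Cre- was Neurod4 (102 ± 15.1 CPM per kb, SD, n = 3), Neurod2 (7.04 ± 1.08), Neurod6 (1.13 ± 0.568), Neurog2 (0.534 ± 0.11), Atoh7 (0.186 ± 0.109) and Ikzf1 (0.143 ± 0.0379), with Ptf1a, Olig2 and Foxn4 at or near 0. Neurod6 and Neurog2 overlapped between libraries on this scale, as did Atoh7 and Ikzf1, so these neighbours in the order did not differ beyond their spread. In Tet tcKO the third place went to Atoh7 (1.03 ± 0.214 CPM per kb), which overlapped Neurog2 (0.734 ± 0.319) and lay above every library of Neurod6 (0.373 ± 0.255). In tHet Atoh7 (0.0779 ± 0.0733 CPM per kb) was below Ikzf1 (0.209 ± 0.0816) on average, with overlap. Neurod4 alone made up 91.5% to 95.6% of the summed CPM of the 9 genes in each library.

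**Figure D1:**
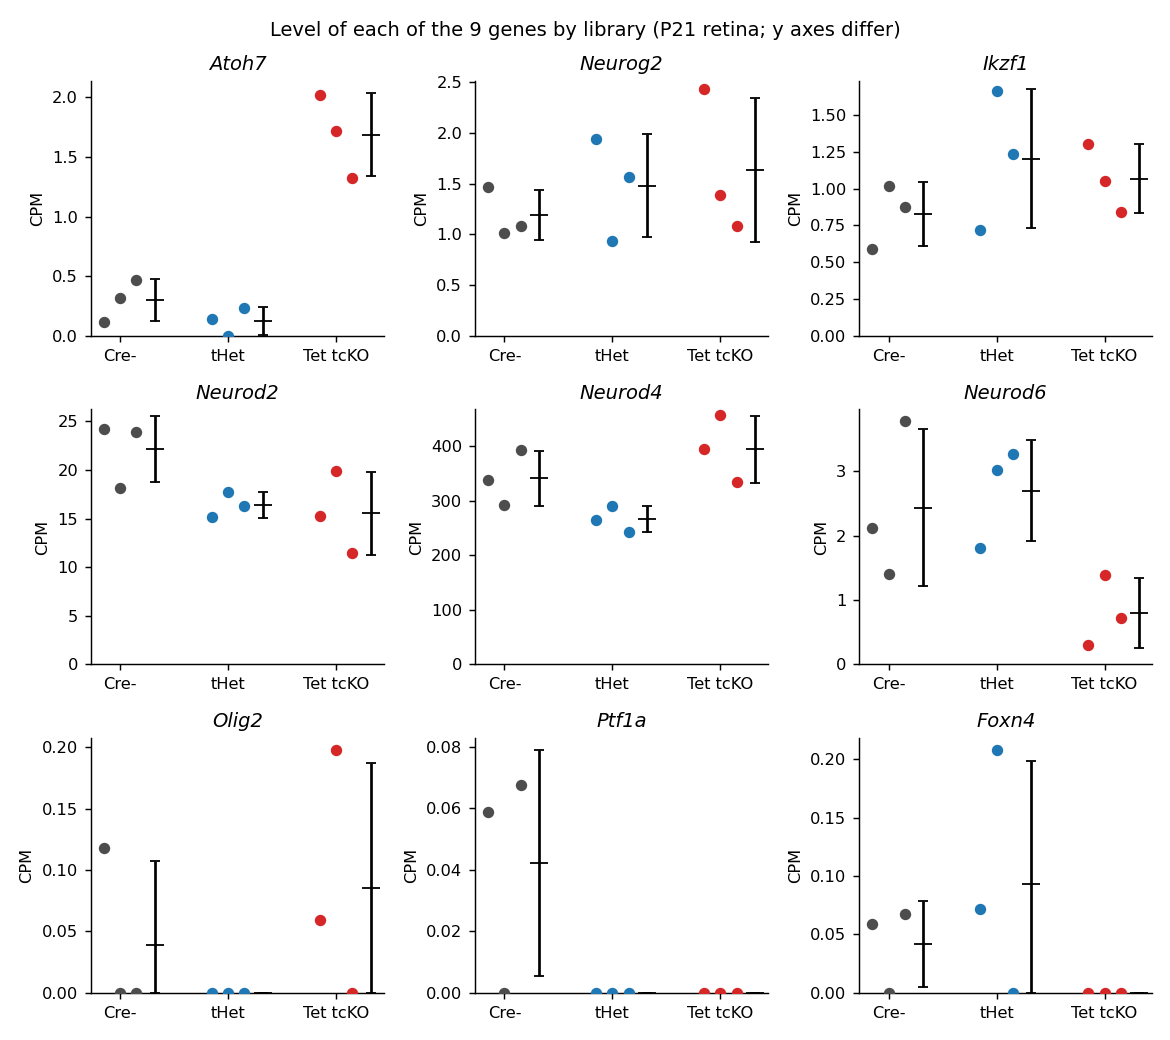
Level of each of the 9 genes in CPM (y axis, linear from 0, a different range in each panel) in the 3 libraries of Cre-, tHet and Tet tcKO (x axis). Points are libraries, and the bar beside them is the mean with 1 SD, drawn down to 0 at most. The Tet tcKO libraries of Atoh7 lie between 1.32 and 2.02 CPM, above all controls, and those of Neurod6 between 0.297 and 1.38 CPM, below all controls.

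Atoh7, the bHLH factor that makes progenitors competent to become retinal ganglion cells, is a gene of a single exon of 1629 bp at chr10:63099651-63101279 (GRCm38). Its transcripts were at 0.118, 0.318 and 0.473 CPM in Cre- replicates 1, 2 and 3, that is 2, 5 and 7 reads, and at 0.144, 0 and 0.237 CPM in tHet (2, 0 and 5 reads). In Tet tcKO they reached 2.02, 1.71 and 1.32 CPM (34, 26 and 22 reads). Every Tet tcKO library was above every library of both controls, which were near the floor. The fitted log2 fold change was 1.46 ± 0.32 (SE) against Cre- (95% interval 0.80 to 2.12, adjusted p = 0.00575) and 1.81 ± 0.32 against tHet (1.15 to 2.47, adjusted p = 0.00101), on the scale of log2(CPM + 0.5), which understates changes of low genes. Summed over libraries, the 82 reads of Tet tcKO corresponded to a ratio of 5.72 to the 14 reads of Cre- (counting interval 3.22 to 10.9) and of 10.7 to the 7 reads of tHet (4.99 to 27.6). In whole retina, more cells with the transcript and more transcript per cell cannot be told apart, for this gene and for the others.

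Calls required a log2 fold change of 1 or more in either direction together with an adjusted p below 0.01, and on that rule Atoh7 rose against both controls. Only the 3 Tet tcKO libraries brought it over the filter of 0.5 CPM in 3 libraries, so its place among the tested genes came from the group in which it was high. The call against Cre- was lost with edgeR's quasi-likelihood test on recovered reads (log2 fold change 2.48, adjusted p = 0.0213) and kept with DESeq2 (2.50, adjusted p = 0.00344). It was also lost on leaving out any 1 of the 6 libraries compared: the adjusted p was then 0.0301, 0.0150 and 0.0131 without Cre- replicate 1, 2 and 3, and 0.0400, 0.0154 and 0.0154 without Tet tcKO replicate 1, 2 and 3, with log2 fold changes of 1.28 to 1.61. The call against tHet held in 19 of 20 alternatives and was lost only without Tet tcKO replicate 1 (1.70, adjusted p = 0.0110). The direction was the same in all of these fits.

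The levels of ganglion cell and progenitor markers were read beside Atoh7, since it makes progenitors competent to become ganglion cells. The 4 ganglion cell markers had no call in either comparison (sums of 715 to 1169 CPM in Cre-, 814 to 1893 in tHet and 506 to 742 in the mutant). Pou4f2, a factor that follows Atoh7 in ganglion cell genesis, was at 8.65 ± 2.18 CPM in Cre- and 8.62 ± 3.29 in Tet tcKO (log2 fold change -0.05, adjusted p = 0.984). The summed level of 7 progenitor markers was 39.2 to 43.2 CPM in Cre-, 36.7 to 42.5 in tHet and 49.6 to 77.7 in the mutant. In Cre- most of this sum came from Sox2 (mean 23.3 CPM), Ccnd1 (9.69) and Ccna2 (6.93). None of these was called in either comparison, so the sum is no measure of progenitor number. Of the 6 of these that were tested, Mki67 (0.380 CPM in Cre-, 5.55 in Tet tcKO) and Top2a, both markers of cycling cells, were called higher against Cre-, where 2.03% of all genes were. A further cycling marker, Ccna2, averaged 6.93 CPM in Cre- and 4.68 in the mutant (-0.49, adjusted p = 0.624). Against tHet none was called, with Mki67 at an adjusted p of 0.01004, and 5 of the 6 were above every tHet library, as were 7.35% of all genes. Tet tcKO replicate 1 had both the highest progenitor sum and the highest Atoh7. That was not particular to progenitors. Among mutant libraries it also had the highest cone (1149 CPM), amacrine (782), horizontal (97.4), oligodendrocyte lineage (98.0), astrocyte (201) and microglia (74.9) sums. Its rod sum (740 CPM) was the lowest, and its bipolar, ganglion cell and Müller glia sums were not the highest. The part of progenitors or other cells in the Atoh7 result was not tested.

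Neurog2, a proneural factor of neurogenic progenitors (chr3:127633135-127635631), was measured at 1.47, 1.02 and 1.08 CPM in Cre-, 1.94, 0.935 and 1.56 CPM in tHet and 2.43, 1.38 and 1.08 CPM in Tet tcKO. The 3 groups overlapped, and the highest value was that of Tet tcKO replicate 1. The log2 fold change was 0.30 ± 0.35 (SE) against Cre- (interval -0.42 to 1.02, adjusted p = 0.829) and 0.09 against tHet (-0.63 to 0.81, adjusted p = 0.934). The differences were within the spread between libraries, and the interval against Cre- reached the size of a call.

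Neurod4, also called Math3, promotes amacrine and bipolar fates (chr10:130268152-130280240). It stood at 338, 293 and 394 CPM in Cre-, 265, 291 and 243 CPM in tHet and 395, 457 and 334 CPM in Tet tcKO. All Tet tcKO libraries were above all tHet libraries, and all tHet libraries were below all Cre- libraries, while Tet tcKO and Cre- overlapped. Against tHet the log2 fold change was 0.56 ± 0.22 (interval 0.10 to 1.02, adjusted p = 0.169), and against Cre- it was 0.21 ± 0.22 (-0.25 to 0.67, adjusted p = 0.803), neither of them called. DESeq2 gave an adjusted p of 0.00520 against tHet at a log2 fold change of 0.63, which is under the fold threshold. Here the scaling mattered: with CT010467.1 left out, Tet tcKO replicate 3 moved from the lowest to the highest of its group (469 CPM) and all mutant libraries then exceeded all Cre- libraries (lowest 394.8 against highest 394.0 CPM), with a log2 fold change of 0.37 and an adjusted p of 0.154. Against tHet the log2 fold change was then 0.70 (adjusted p = 0.0121). With TMM scaling it was 0.63 (adjusted p = 0.0305) and with upper-quartile scaling 0.56 (adjusted p = 0.04), all under the fold threshold. The 4 bipolar markers were split, with Cabp5 called higher and Trpm1 lower against Cre-, and summed to 993 to 1171 CPM in Cre-, 727 to 1138 in tHet and 770 to 1328 in the mutant. Their part in the Neurod4 levels was not tested.

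Neurod6 is a marker of a small class of amacrine cells that use neither GABA nor glycine as transmitter (chr6:55677822-55681263). It was read at 2.12, 1.40 and 3.78 CPM in Cre- (36, 22 and 56 reads), 1.80, 3.01 and 3.27 CPM in tHet and 0.297, 1.38 and 0.723 CPM in Tet tcKO (5, 21 and 12 reads). Every Tet tcKO library was below every control library, though Tet tcKO replicate 2 and Cre- replicate 2 were nearly level. The log2 fold change was -1.18 ± 0.39 against Cre- (interval -1.99 to -0.37, adjusted p = 0.0825) and -1.35 ± 0.39 against tHet (-2.16 to -0.54, adjusted p = 0.0431), so neither difference was called. Summed reads gave a ratio of 0.326 to Cre- (counting interval 0.219 to 0.474) and of 0.284 to tHet (0.192 to 0.411). Against tHet it was called with only the 6 libraries compared (adjusted p = 0.00958) and with a replicate block (adjusted p = 0.00772), and without Tet tcKO replicate 1 its adjusted p was 0.286.

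Neurod2, which is found in glycinergic AII amacrine cells and some ganglion cells (chr11:98325415-98329648), was at 24.2, 18.2 and 24.0 CPM in Cre-, 15.1, 17.8 and 16.3 CPM in tHet and 15.3, 19.9 and 11.4 CPM in Tet tcKO. Both Cre-positive genotypes were lower on average than Cre-, and every tHet library was below every Cre- library, while the ranges of Tet tcKO and the other groups overlapped. The log2 fold change was -0.52 ± 0.25 against Cre- (interval -1.04 to 0.00, adjusted p = 0.312) and -0.11 against tHet (-0.63 to 0.41, adjusted p = 0.890), and -0.41 between tHet and Cre- (adjusted p = 1.00).

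Genes of the amacrine classes in which the Neurod factors act were measured beside them. Among 6 such genes, 2 were called lower against Cre-, where 1.57% of all genes were, and the median log2 fold change was -0.41, against 0.00 over all genes (-0.25 and 0.14 without CT010467.1). These genes were chosen with earlier results of these data known, so the counts are description only. Gjd2, the neuronal gap junction protein connexin 36 found in AII cells, fell from 73.2 to 35.9 CPM (-1.04, adjusted p = 0.00367), and Slc6a9, the glycine transporter GlyT1 of glycinergic amacrine cells in general, from 57.0 to 24.8 CPM (-1.25, adjusted p = 0.00356). Against tHet only Slc6a9 was called (-1.39, adjusted p = 0.00175), and Gjd2 was at -0.76 (adjusted p = 0.0383). Ppp1r17 and Ebf3, which mark the class of Neurod6, were not called, at -0.40 and -0.02 against Cre-. The 5 general amacrine markers summed to 504 to 596 CPM in Cre-, 423 to 566 in tHet and 376 to 782 in the mutant, with Slc6a9 again the 1 call. The part of amacrine cell numbers in the Neurod values was not tested.

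Olig2, Ptf1a and Foxn4 did not pass the filter and have no place in the fit. Olig2 (chr16:91225457-91228677), which marks progenitors about to divide for the last time and, outside the retina, the oligodendrocyte lineage, had 2, 0 and 0 reads in Cre-, none in tHet and 1, 3 and 0 reads in Tet tcKO. Ptf1a (chr2:19445663-19447501) had 1, 0 and 1 reads in Cre- and none in the 6 other libraries, and its exons overlap the antisense transcript Ptf1aos. Foxn4 (chr5:114254164-114273807) had 1, 0 and 1 reads in Cre-, 1, 2 and 0 in tHet and none in Tet tcKO. All 27 values were thus at or under 3 reads, and no fold is given. The floor of 3 reads, taken over the 3 libraries of a genotype, corresponded to 0.0617 CPM in Tet tcKO and 0.0672 CPM in tHet. Exact two-sided permutation tests gave p from 0.4 to 1, and with 3 libraries against 3 such a test cannot go below 0.1. The 8 oligodendrocyte lineage markers had no call and summed to 55.9 to 58.3 CPM in Cre- and 52.3 to 98.0 CPM in Tet tcKO, and the 3 horizontal cell markers had none either (72.2 to 149 and 45.9 to 97.4 CPM).

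Ikzf1 (chr11:11685003-11772926) was measured at 0.589, 1.02 and 0.878 CPM in Cre-, 0.720, 1.66 and 1.23 CPM in tHet and 1.31, 1.05 and 0.843 CPM in Tet tcKO. All 3 groups overlapped. The log2 fold change was 0.24 ± 0.33 against Cre- (interval -0.45 to 0.93, adjusted p = 0.867) and -0.09 against tHet (-0.78 to 0.60, adjusted p = 0.930). Blood cells also use Ikzf1. Of 10 microglia and macrophage markers, Cx3cr1 was called higher against Cre- (7.99 to 21.1 CPM, log2 fold change 1.31, adjusted p = 0.00935) and none against tHet, and their sum was 27.4 to 36.03 CPM in Cre-, 34.2 to 46.3 CPM in tHet and 39.1 to 74.9 CPM in Tet tcKO. The 7 lymphocyte markers summed to between 2.29 and 4.67 CPM in all libraries, mostly from Ptprc, with Cd3e at 0 in Cre- and Tet tcKO and Cd79b at 0 in tHet. The part of these cells in the Ikzf1 level was not tested.

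**Figure D2:**
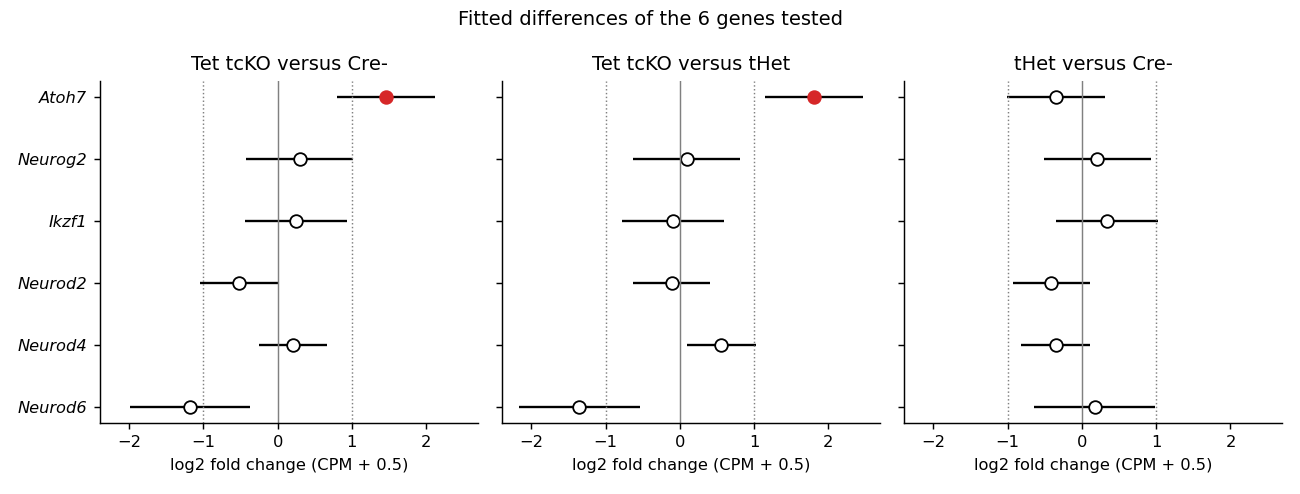
Fitted log2 fold change on the scale of log2(CPM + 0.5) (x axis) with its 95% interval for the 6 members tested (y axis), in each of the 3 comparisons. Red points were called, open points were not, and dotted lines mark a log2 fold change of 1 in either direction. Atoh7 is at 1.46 and 1.81 in the comparisons of Tet tcKO, and no member was called between tHet and Cre-.

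Counted over comparisons, 6 of the 9 members were tested. Only the Tet tcKO libraries brought Atoh7 over the filter, so counts that include it are no test against the shares of all genes. Between Tet tcKO and Cre-, 1 of them, Atoh7, was called, and 3.6% of the 21330 genes tested were (2.03% higher and 1.57% lower). Groups did not overlap for Atoh7 (above) and Neurod6 (below), as for 19.6% of all genes (10% above, 9.6% below), and 16.1% of genes had an unadjusted p under 0.05. Between Tet tcKO and tHet, which shares the Tet tcKO libraries with the first comparison, Atoh7 was again the 1 member called, beside 3% of all genes (1.39% higher and 1.61% lower). There Atoh7 and Neurod4 lay wholly above and Neurod6 wholly below, as did 7.35% and 9.68% of all genes (17% in all), and 17.5% had an unadjusted p under 0.05.

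Between tHet and Cre- no member was called by limma, edgeR or DESeq2. The background was 0.0422% of genes, all of them higher and 0% lower, and 4.55% of genes, but none of the 6 members, had an unadjusted p under 0.05. Neurod2 and Neurod4 lay wholly below Cre- in tHet, as did 5.37% of genes, and no member lay wholly above, as did 5.78% (11.1% in all). The fitted log2 fold changes of the 6 members ran from -0.41 for Neurod2 to 0.33 for Ikzf1, with Atoh7 at -0.35, Neurod4 at -0.35, Neurod6 at 0.17 and Neurog2 at 0.20.

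**Figure D3:**
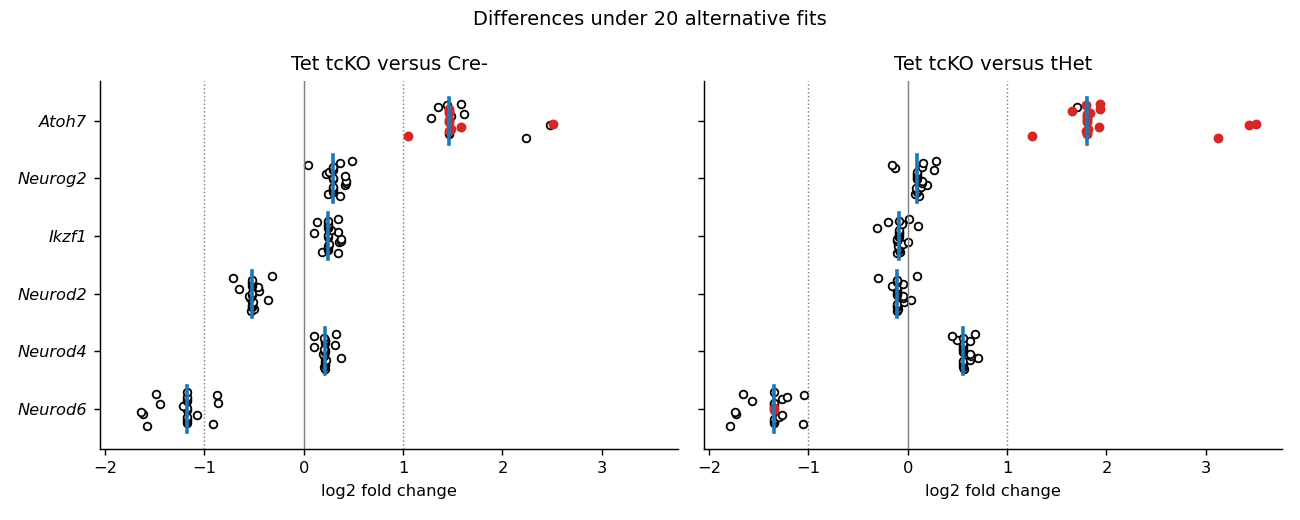
Log2 fold change (x axis) of the 6 members tested (y axis) in 20 alternative fits (points) and in the fit reported here (blue bar), for both comparisons of Tet tcKO. Red points passed the call, open points did not, and edgeR and DESeq2 give values without the pseudocount. Atoh7 ranges from 1.04 to 2.50 against Cre-, with 10 of 20 fits calling it, and from 1.25 to 3.51 against tHet, with 19 of 20.

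The other genes of the bHLH pathway were taken as lists. Of 11 further proneural and neuronal bHLH genes, 7 were tested, and Bhlhe23, a factor of rod bipolar cells, fell from 8.18 ± 0.811 CPM in the Cre- retinas to 1.77 ± 1.70 CPM in the mutant (-2.20, adjusted p = 0.00154) but was not called against tHet (-1.45, adjusted p = 0.0387). Their median log2 fold change was -0.30 against Cre- and 0.17 against tHet, where none was called. Olig3 averaged 0.50 CPM in the mutant, against 1.78 CPM in Cre- and 2.55 in tHet (adjusted p = 0.0487 and 0.0124) and was not called. The other 4 genes of the list were, like the 3 rare members, under the filter.

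The E proteins and the Id, Hes and Hey genes gave no call. The 3 E proteins, Tcf3, Tcf4 and Tcf12, had a median log2 fold change of 0.08 against Cre- and 0.12 against tHet. All 10 Id, Hes and Hey genes were tested, and 9 had a value above 0 against Cre- and 8 against tHet, with medians of 0.69 and 0.65, beside 0.00 and -0.06 over all genes, and 9 of 10 were above 0 against Cre- under every other scaling too. Among the 9 above 0 against Cre- was Hes6, at 0.0034. For 7 of the 10 all mutant libraries exceeded all Cre- libraries, as for 10% of all genes. For 6 of the 10 they exceeded all tHet libraries, as for 7.35% of all genes. Since this list was chosen with earlier results of these data known, these counts are description only and no test against the shares of all genes. Hey2 was at 16.4 CPM in Cre-, 16.0 in tHet and 29.2 in the mutant (0.82, adjusted p = 0.0339), and Id3 at 1.91, 2.92 and 5.30 CPM (1.29, adjusted p = 0.0207). Hes and Hey genes are also expressed in Müller glia, of whose 4 markers Apoe was called higher and Rlbp1 and Glul lower in both comparisons, and the part of these cells was not tested.

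Among 14 other temporal competence factors, the group to which Ikzf1 belongs, 13 were tested and none was called, with a median of 0.02 against Cre- and of -0.04 against tHet, the latter turning to 0.03 with TMM scaling and 0.10 without CT010467.1. Casz1, which acts in later progenitors, was at 266 CPM in Cre-, 306 in tHet and 210 in the mutant (-0.37, adjusted p = 0.529). Lin28a was at 2.14, 2.75 and 4.29 CPM (0.89, adjusted p = 0.171).

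Of 18 factors and genes that act after the members in the fate programmes, 17 were tested. Against Cre-, 2 were called higher and 1 lower, beside 2.03% and 1.57% of all genes, and against tHet 2 were called, both higher, beside 1.39% of all genes. The list was chosen with earlier results known and Rxrg is also 1 of the 4 cone markers, so these counts are description only. Rxrg, a nuclear receptor of cones, rose from 7.38 CPM in Cre- and 9.59 in tHet to 42.8 CPM in Tet tcKO (2.41, adjusted p = 1.79e-05, and 2.08, adjusted p = 0.000119). Dll1, a Notch ligand that proneural factors induce, rose from 11.2 ± 0.279 and 11.3 ± 0.432 CPM to 36.4 ± 8.96 CPM (1.63, adjusted p = 0.00016, and 1.61, adjusted p = 0.000219). Prox1, a factor of horizontal, AII amacrine and bipolar cells, fell from 301 to 126 CPM against Cre- (-1.35, adjusted p = 0.00229) and was at -1.02 against tHet (adjusted p = 0.0213). The remaining 14 were not called in either comparison: the ganglion cell factor Pou4f1 was at 0.11 against Cre-, and Prdm13, which acts after Ptf1a, at 0.27. Onecut3, a factor of early-born cells, lay wholly below both controls, at 15.2 CPM in Cre-, 14.2 in tHet and 6.93 in the mutant (-1.09, adjusted p = 0.0342, and -0.97, adjusted p = 0.0687). The median of the list was 0.06 against Cre- and 0.04 against tHet.

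**Figure D4:**
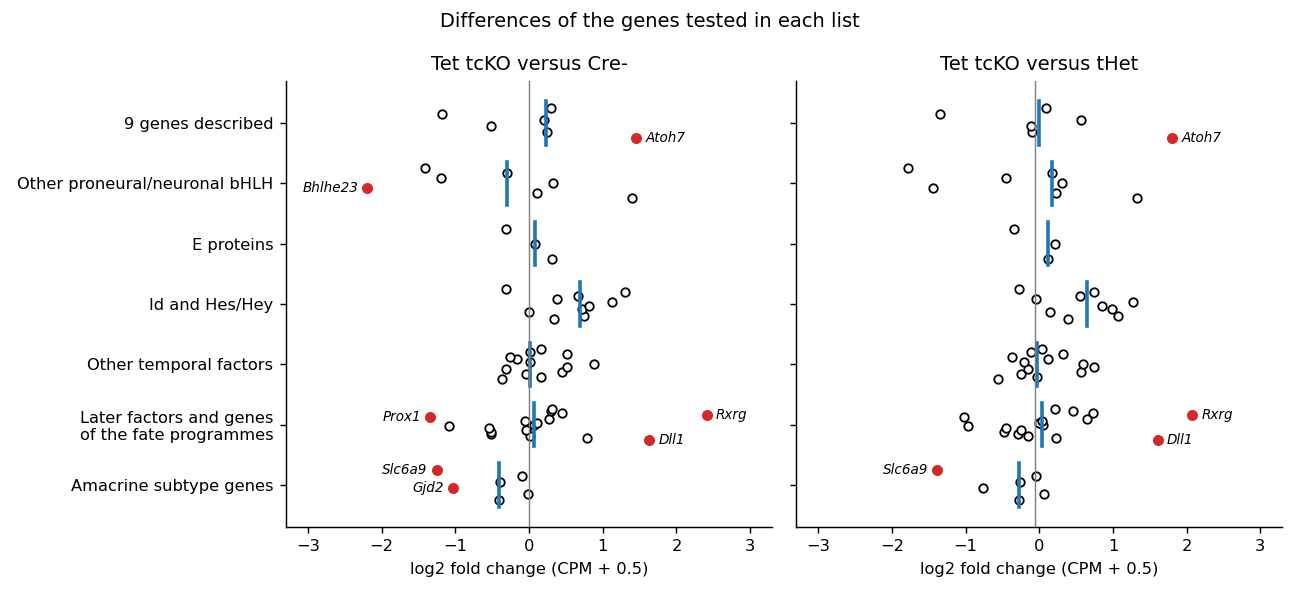
Log2 fold change on the scale of log2(CPM + 0.5) (x axis) of every gene tested in each list (y axis), for Tet tcKO against Cre- and against tHet. Red points were called and are named, open points were not, blue bars are list medians and the grey line is the median of all genes. Atoh7, Rxrg and Dll1 lie to the right in both panels, and the median of the Id and Hes/Hey genes is at 0.69 and 0.65.

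The genes whose pattern was most like that of a member were found by Pearson's r over the 9 libraries among genes with a mean of at least 1 CPM, as a description only. For Atoh7 they were H2-Q6 (r = 0.985), Ppm1j (0.982) and Ccdc171 (0.980). Ccdc171 was at 32.7 ± 2.89 CPM in Cre-, 31.2 ± 5.90 in tHet and 72.2 ± 3.59 in the mutant, and H2-Q6, a class I histocompatibility gene with close copies between which reads can be split, at 1.05, 0.911 and 5.66 CPM. For Neurod6 they were Qrfpr (0.943), Gapdh-ps14, a pseudogene, and Slc6a20a, and for Neurod4 Gas1 (0.958), Etv5 and Ier5l. Neurod2 was followed by Pstpip2 (0.970), Rftn2 and Kcnk3, Neurog2 by Puf60 (0.896), Prkcq and Rps14, and Ikzf1 by Rad51ap2 (0.933), Loxl3 and Lair1. The points share library, depth and genotype, so that genes that differ between genotypes resemble each other by that alone.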

How the data were processed

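Bulk RNA-seq of P21 retinas was taken from 9 libraries, grouped by the sample labels. Per the labels and the study's methods, ribosomal RNA was removed, stranded libraries were made, and reads were trimmed (Trim Galore 0.6.7), aligned to mm10 (STAR 2.7.0f) and counted (HTSeq 0.11.2). The authors deposited CPM values, divided by each library's total, together with log2 and p-value columns of their own edgeR comparisons, which were not used. The annotation release and the strand setting of the counting are not given in the sources used here. All positive CPM were whole multiples of 1 read within 0.02 reads (100%), so reads were recovered. No column of another sample was present, and no 2 libraries were identical. Nothing says that replicates with the same number share a litter, and p-values measure the spread between libraries of pooled animals.

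The 21330 genes that reached 0.5 CPM in 3 or more libraries entered a limma fit of log2(CPM + 0.5) (limma 3.58.1, R 4.3.3; trend, 1 mean per genotype, all 9 libraries), with Benjamini-Hochberg adjustment over all genes. Calls required a log2 fold change of 1 or more in either direction together with an adjusted p below 0.01. Rare members got an exact two-sided permutation test. Tried besides were pseudocounts of 0.1 and 1, no filter or 1 CPM, upper-quartile (75th percentile) and TMM scaling, leaving out CT010467.1, edgeR 4.0.16 and DESeq2 1.42.0 on recovered reads, a replicate block, only the 6 libraries compared, other thresholds, and leaving out each library. edgeR called 744 genes against Cre- and 608 against tHet. The fits were also run on simulated reads with known changes and the same spread setting for every gene. That setting is simpler than these libraries, in which CT010467.1 took unequal shares, so the run does not bear on single calls such as that of Atoh7.

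Every member is named. Of each list, all genes called in a comparison of Tet tcKO are named and up to 4 others, and for each member tested the 3 genes most like it. Some list genes are counted but not reported by name here. Onecut3 and the single markers quoted beside a member were chosen after their values were seen. Members and lists were chosen with earlier results of these data known. Exon lengths and positions came from GENCODE M21 (GRCm38), which 54435 of 55487 gene identifiers matched, and promoters from RefSeq. Figures were drawn with matplotlib 3.10.9.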

Additional observations from a re-analysis of the deposited data

How the results depend on the processing

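The 1 member called between Tet tcKO and Cre-, Atoh7, became 0 with a pseudocount of 0.1 CPM (adjusted p = 0.0311), without a filter (0.0209), with a filter at 1 CPM (0.0132) and with edgeR (0.0213), and between 0 and 1 on leaving out each library. Against tHet the count of 1 became 2, by adding Neurod6, with a replicate block, with only the 6 libraries compared and at an adjusted p under 0.05, and ranged from 0 to 1 on leaving out each library. The cause was not tested. The sign reversed for 4 small differences. Against tHet, Neurog2 went to -0.12 without tHet replicate 2 and -0.16 without Tet tcKO replicate 1, Neurod2 to 0.0321 without CT010467.1 and 0.0889 without Tet tcKO replicate 3, and Ikzf1 to 0.0028 without CT010467.1, 0.0986 without tHet replicate 2 and 0.0142 without Tet tcKO replicate 3. Neurod6 in tHet against Cre- went to -0.10 without Cre- replicate 2. On leaving out each library these 4 ranged from -0.16 to 0.28, from -0.297 to 0.0889, from -0.314 to 0.0986 and from -0.10 to 0.49. Other member results kept their direction and their side of the threshold.

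Over all genes, 768 were called against Cre- and 640 against tHet, 417 and 351 without a filter, 1145 and 1046 with DESeq2, and 980 and 1013 with only the 6 libraries compared. Single libraries moved these counts, and with them the shares of all genes called: 360 and 287 without Tet tcKO replicate 1, 430 (331 higher, 99 lower) and 373 without Tet tcKO replicate 3, 422 against Cre- without Cre- replicate 3, and 339 against tHet without tHet replicate 1. Without CT010467.1, 613 genes were called higher and 222 lower against Cre-, in place of 434 and 334, and against tHet 427 and 215 in place of 297 and 343. Whether replicate numbers pair the libraries was not settled. The correlation of deviations from the group mean averaged 0.111 over 9 pairs with the same number (-0.350 to 0.560). Over pairs with different numbers it averaged -0.0515. In both other genotypes 3 libraries correlated best with their own number. The replicate block gave 1127 calls against Cre- and 1125 against tHet, in place of 768 and 640. Depth limits Olig2, Ptf1a and Foxn4, whose values were at or under 3 reads, and Atoh7 in the controls, and 3 libraries per genotype limit the rest.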
